A study of Mus musculus with 14 samples.

Results

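Interferon-induced genes were followed in epididymal fat, which lies in the abdomen of male mice. The list held 39 targets of type I and type II interferon, and a gene was measured when a probe set of the array carried its symbol and no other; where a gene had several, the set with the highest mean over the 14 arrays was used. Of the 39 genes, 35 were measured among 19937 genes in all. Isg15, Ifi44, Gbp2 and Igtp had no probe set of their own and are not analysed here. Each array held total RNA from the whole pad of 1 mouse. Wild-type (WT) C57BL6/J mice ate the normal diet (ND; n = 3 arrays) or a Western diet of 42% anhydrous milk fat (HFD; n = 3). The mice named EKO, which the labels tie to apolipoprotein E on the same C57BL6/J strain, ate the normal (n = 4) or the Western diet (n = 4). All 4 groups were fed for 24 weeks from 8 weeks of age.

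Interferons are secreted when cells sense foreign or misplaced nucleic acid, or, for interferon gamma, when T and NK cells are activated. Type I interferon acts through the Ifnar1 and Ifnar2 receptor chains and the kinases Jak1 and Tyk2 to bring Stat2 and Irf9 to the interferon-stimulated response element (ISRE). Interferon gamma acts through the Ifngr1 and Ifngr2 receptor chains, and its early target genes carry the gamma-activated site (GAS). In obese fat, macrophages and lymphocytes that gather between the adipocytes both make and answer these signals, and some of the genes below are also expressed by myeloid cells without interferon.

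Both response elements could be read in the promoters of the listed genes, and examples are shown from genes whose levels are compared below. Promoter windows of 300 bases, from 250 before to 50 after the transcript start, were taken from RefSeq (GRCm38.p6), which matched 30 of the 39 genes. The ISRE core, GAAA followed by any 2 bases and a further GAAA, searched on both strands, was present for 17 of the 30 (56.7%), against 3.99% of 27025 genes with a window. The GAS TTCNNNGAA, which reads the same on both strands, was present for 10 of the 30 (33.3%), against 9.55% of all genes. Cores may overlap each other, and in Bst2 a GAS overlaps an ISRE core. The stretches below lie upstream of the start, read 5′ to 3′ along the gene, and have the ISRE cores in capitals, or, for Irf8 and Irf1, the GAS.
Ifit1, GRCm38.p6 chr19:34640775-34640824, plus strand: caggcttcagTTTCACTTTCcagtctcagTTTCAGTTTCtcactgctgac
Ifit3, GRCm38.p6 chr19:34583365-34583424, plus strand: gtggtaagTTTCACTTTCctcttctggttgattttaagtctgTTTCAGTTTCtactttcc
Oas1a, GRCm38.p6 chr5:120907526-120907565, minus strand: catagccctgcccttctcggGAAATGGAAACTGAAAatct
Gbp3, GRCm38.p6 chr3:142559987-142560026, plus strand: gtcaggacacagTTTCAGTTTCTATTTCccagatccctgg
Irgm1, GRCm38.p6 chr11:48871423-48871462, minus strand: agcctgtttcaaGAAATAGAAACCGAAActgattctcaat
B2m, GRCm38.p6 chr2:122147533-122147572, plus strand: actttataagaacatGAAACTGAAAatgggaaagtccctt
Irf8, GRCm38.p6 chr8:120736171-120736230, plus strand: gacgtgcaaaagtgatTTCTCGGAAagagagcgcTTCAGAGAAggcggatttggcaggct
Irf1, GRCm38.p6 chr11:53769904-53769953, plus strand: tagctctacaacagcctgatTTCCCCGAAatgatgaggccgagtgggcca
Ifit1 and Ifit3 each held a pair of separate ISRE cores, Oas1a, Gbp3 and Irgm1 held a pair that overlap, and B2m held 1. The Irf8 window held 2 GAS and no ISRE core. A match is a description of the letters and was not tested for binding.

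**Figure D1:**
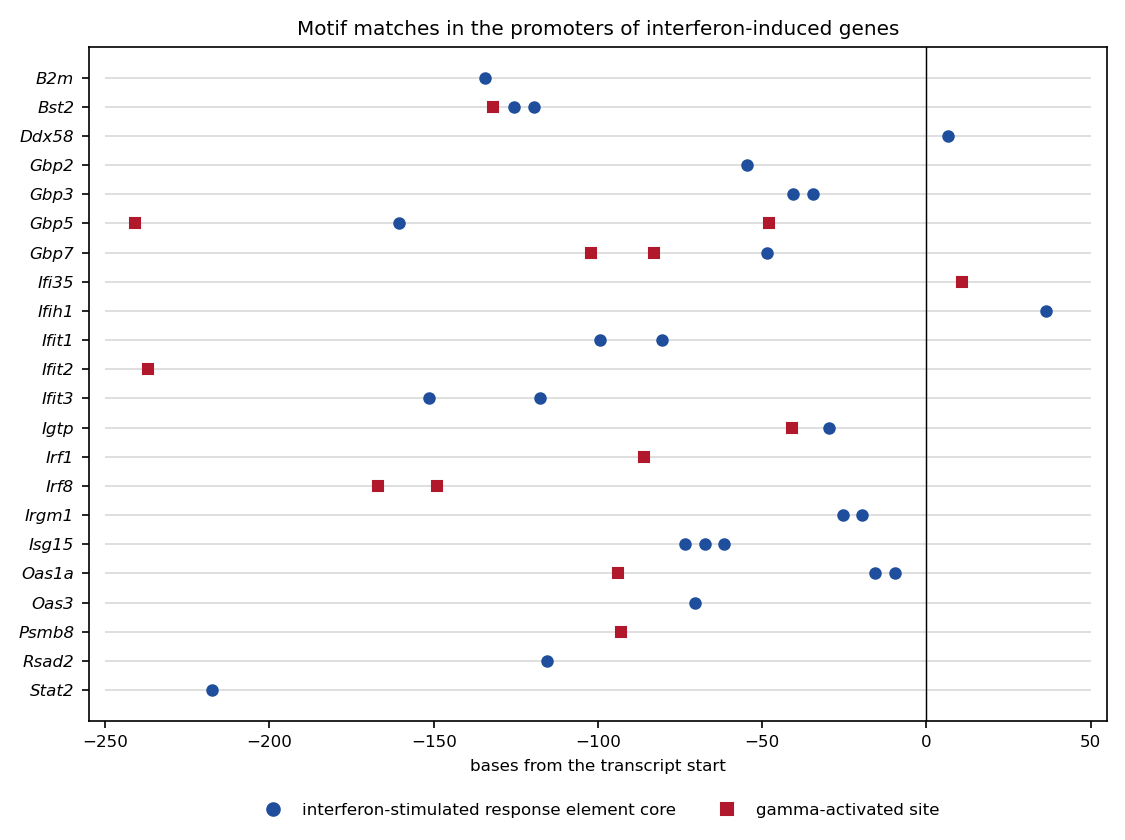
Matches of the ISRE core (circles) and the GAS (squares) in the promoter windows of the interferon-induced genes that hold at least 1, by distance in bases from the transcript start. Most matches lie upstream of the start, and Irf8 has 2 GAS and no ISRE core.

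The deposited values are log2 levels, so a difference of 1 is a 2-fold change, and levels of different probe sets cannot be set against each other. The ± after a log2 fold change gives its standard error, and after a group level the SD. Adjusted p values come from limma over all 19937 genes, and a gene passed at an adjusted p under 0.05. Apoe was 9.46 to 10.26 in the 8 EKO arrays and 13.13 to 13.65 in the 6 WT arrays, which matches the genotype labels. All 7 measured adipocyte markers lay above the array background, which was taken as the mean of 1192 olfactory and vomeronasal receptor rows (highest array 6.84), while 5 of 7 epididymis markers lay at it. By that background 5 arrays stood apart (6.75 to 6.84, against 6.30 to 6.56 in the other 9): replicate 1 of both WT groups, replicate 2 of EKO fed the normal diet, and EKO replicates 1 and 3 of the Western-diet group. The labels call the replicates of a group biological. In whole tissue, fewer cells of a type and less RNA per cell cannot be told apart.

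In WT fat the Western diet raised 1 interferon-induced gene of 35, Irf8, and none of the measured antiviral effectors passed. Over all genes 3.19% passed as higher, 2.3% as lower and 5.49% in either direction. Irf8 encodes a transcription factor that drives the development of monocytes, macrophages and dendritic cells and is itself induced by interferon gamma. Its level was 8.60, 9.06 and 9.15 in the WT arrays on normal diet and 9.29, 10.54 and 10.72 on Western diet. The groups did not overlap, and replicate 1 on Western diet, an array of higher background, lay far below the other two. Irf8 rose by 1.25 ± 0.29 on the log2 scale, a 2.37-fold rise (adjusted p = 0.0217, limma). Without WT replicate 1 on Western diet it was 1.69 (adjusted p = 0.000174), and with the background set as a block 1.25 (adjusted p = 0.00146). Within the 9 arrays of lower background, which leave out WT replicate 1 of both diets, it was 1.52 (adjusted p = 0.000845). The call ended without WT replicate 1 or 2 on normal diet (1.08, adjusted p = 0.0712; 1.31, adjusted p = 0.0567) and without WT replicate 2 or 3 on Western diet (1.07, adjusted p = 0.100; 0.98, adjusted p = 0.129). It also ended when the 6 WT arrays were fitted alone (adjusted p = 0.126).

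Markers of macrophages also moved between the WT diet groups. In replicate 1 on Western diet Irf8, at 9.29, was below EKO replicate 4 on normal diet (9.43). The mean macrophage marker level of that WT array was 10.45, above all arrays outside its group. Within both WT groups and EKO on normal diet, the arrays ranked alike by Irf8 and by mean macrophage marker level. In EKO on Western diet replicates 3 and 4 changed places. Of 12 macrophage markers 6 rose and 1 fell in WT, against 3.19% and 2.3% of all genes. Their mean level was 9.62 to 9.86 on normal and 10.45 to 10.89 on Western diet. At an unadjusted p under 0.05, 9 were higher and 1 lower, against 8.53% and 8.42% of all genes. The WT groups did not overlap for 9 as higher and 1 as lower, against 8.77% and 11.3%. None of the 12 lay at background. The marker that fell was Mertk, at -0.765 ± 0.163 (adjusted p = 0.0132, limma), and its WT groups did not overlap. Csf1r, Itgam, Lyz2, Cd14 and Mrc1 did not pass (0.115 to 0.787), though the WT groups of Csf1r, Itgam and Lyz2 did not overlap. Itgax, the CD11c gene of macrophages and dendritic cells, had the largest rise, 2.15 ± 0.17 (adjusted p = 1.09e-05, limma). The part of these cells in the Irf8 result was not tested. The mean level of 5 genes listed for plasmacytoid dendritic cells was 8.09 to 8.23 and 8.12 to 8.22 in the WT groups. How far each gene is particular to those cells, Clec10a above all, was not tested. Of the 5, 0 passed. Clec10a was at 0.28 ± 0.31, and Ccr9, Cox6a2 and Pacsin1 were between 0.017 and 0.075. Siglech was at -0.27 ± 0.11, and its WT groups did not overlap. It was the 1 gene of the 5 apart as lower, with 0 as higher, against 11.3% and 8.77% of all genes. On Western diet Siglech was 7.65 to 8.06 in WT and 8.14 to 8.31 in EKO, without overlap.

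**Figure D2:**
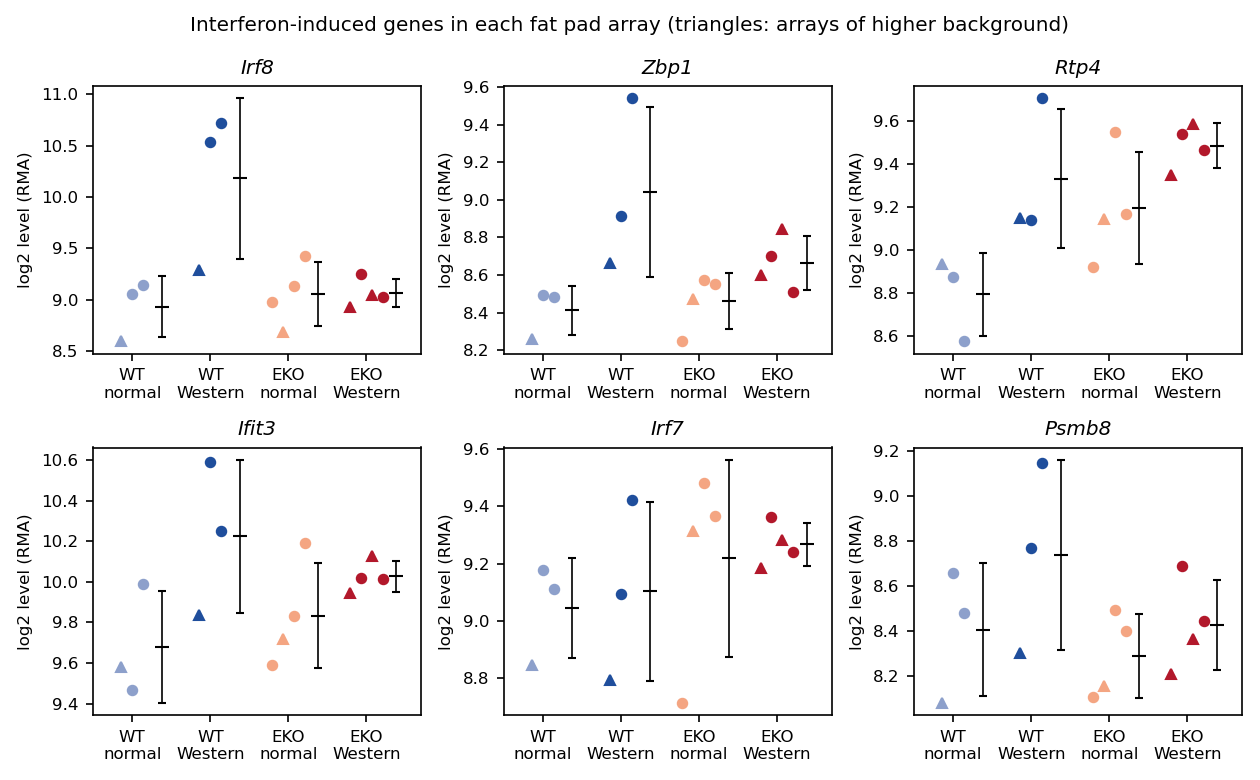
Log2 level of 6 interferon-induced genes in each of the 14 arrays, by genotype and diet (n = 3, 3, 4 and 4); bars give the mean ± SD, and triangles mark the 5 arrays of higher background. Irf8 lies at 9.29, 10.54 and 10.72 in the 3 WT arrays on Western diet and at 8.69 to 9.43 in the 8 EKO arrays, so the lowest of these WT arrays is within the EKO range.

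Of the 4 nucleic acid sensors among the 35 genes, 0 passed and Zbp1 had the smallest p. Zbp1 binds Z-form nucleic acid and can start cell death. It stood at 8.26, 8.50 and 8.48 in WT on normal diet and at 8.66, 8.91 and 9.54 on Western diet. The groups did not overlap, and the highest value was that of replicate 3 on Western diet. The log2 fold change was 0.63 ± 0.18 (adjusted p = 0.0523, limma), and it passed in 9 of 17 alternative settings, among them the lower-background arrays alone (0.74, adjusted p = 0.0364). The RNA sensors Ifih1 (MDA5), Ddx58 (RIG-I) and Dhx58 (LGP2) were at -0.04 ± 0.14, 0.19 ± 0.13 and 0.32 ± 0.20, and their WT groups overlapped.

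The other transcription factors of the pathway gave small values in WT. Irf7, the amplifier of type I interferon, was 8.85, 9.18 and 9.11 on normal diet and 8.79, 9.09 and 9.42 on Western diet. The groups covered nearly the same range, and its log2 fold change of 0.06 ± 0.18 had a 95% interval of -0.33 to 0.45. Stat2 and Irf9, which act at the ISRE, were at 0.16 ± 0.15 and 0.22 ± 0.12. Usp18, which removes Isg15 from proteins and damps the type I receptor, was at 0.26 ± 0.12. Irf1, the early target of interferon gamma, was at 0.22 ± 0.16 by its brighter probe set and at -0.23 ± 0.13 by its dimmer one, so its sign was not settled. None of these 5 genes passed (smallest adjusted p = 0.293, for Usp18).

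Of 18 antiviral effector genes 16 were measured, and 0 passed in WT by limma, with 4 at an unadjusted p under 0.05, all higher, against 8.53% of all genes. Their log2 fold changes ran from -0.26 (Oasl2) to 0.55 (Ifit3), with 15 of 16 above 0, Mx1 and Mx2 at background among them, against 44.2% of all genes. Ifit3, which binds foreign RNA with Ifit1, was 9.58, 9.47 and 9.99 on normal diet and 9.84, 10.59 and 10.25 on Western diet, so that the groups overlapped. Its log2 fold change was 0.55 ± 0.19 (adjusted p = 0.117, limma). Ifit3 passed in 2 of 17 alternative settings, without WT replicate 1 on Western diet (0.74, adjusted p = 0.0209) and with array weights (0.70). In the lower-background arrays alone it did not pass. Rtp4, an interferon-induced inhibitor of viral replication, was 8.94, 8.88 and 8.57 on normal and 9.15, 9.14 and 9.71 on Western diet. Every Western-diet value of Rtp4 was the higher, with a log2 fold change of 0.54 ± 0.17 (adjusted p = 0.0847, limma). Oas1a, Bst2 and Oas2 did not overlap between the WT diets either, at 0.26 ± 0.10, 0.27 ± 0.10 and 0.30 ± 0.21. Oas1a and Oas2 make the oligoadenylates that activate RNase L, and Bst2 (tetherin) holds budding virus at the cell surface. Rsad2 (viperin) and Ifit1, with values of 0.17 ± 0.23 and 0.26 ± 0.17, overlapped. Mx1 and Mx2, whose genes are known to be defective in common laboratory strains including C57BL/6, had group means of 6.32 to 6.48 and 6.44 to 6.53, at the array background in all 4 groups. No fold is given for them, though they stay in the counts and medians of the list.

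The GTPase genes, which act against intracellular microbes and are strong targets of interferon gamma, were at -0.02 ± 0.18 (Gbp3), 0.03 ± 0.20 (Gbp5), 0.07 ± 0.21 (Gbp7) and 0.14 ± 0.12 (Irgm1) in WT. The 5 genes of class I antigen processing lay between -0.08 (B2m) and 0.33 (Psmb8). Psmb8, a catalytic subunit of the immunoproteasome, was 8.08, 8.66 and 8.48 on normal and 8.30, 8.77 and 9.14 on Western diet, with overlap (0.33 ± 0.20, adjusted p = 0.469, limma). B2m, the light chain of class I molecules, was 13.55 ± 0.18 and 13.47 ± 0.34 (SD, n = 3 each). Tap1 and Tap2, the peptide transporter, and Psmb9 were at 0.24 ± 0.17, 0.06 ± 0.15 and 0.07 ± 0.13. Gbp, Oas and Ifit genes have close paralogs, and how far their probes tell them apart is not given in the sources used here.

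Over all 35 genes the median diet log2 fold change in WT was 0.19, against -0.02 over all genes, and 31 were above 0, against 44.2% of all genes. At an unadjusted p under 0.05 there were 7 higher and 0 lower, against 8.53% and 8.42% of all genes. The WT groups did not overlap for 6 as higher and for 0 as lower, against 8.77% and 11.3% of all genes. For 33 of the 35 the unadjusted 95% interval lay within 1 of 0 on the log2 scale, the exceptions being Irf8 (0.62 to 1.87) and Zbp1 (0.25 to just above 1), and for 19 it lay within 0.5. When known changes were simulated for this comparison (19937 genes), limma found 85% of the changes of 1 and 36% of those of 0.5, with noise drawn independently for each gene. The 14 measured genes with an ISRE core had a median of 0.15 and the 12 with a window but no core 0.21, while the 9 with a GAS had 0.26 and the 17 without 0.14.

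**Figure D3:**
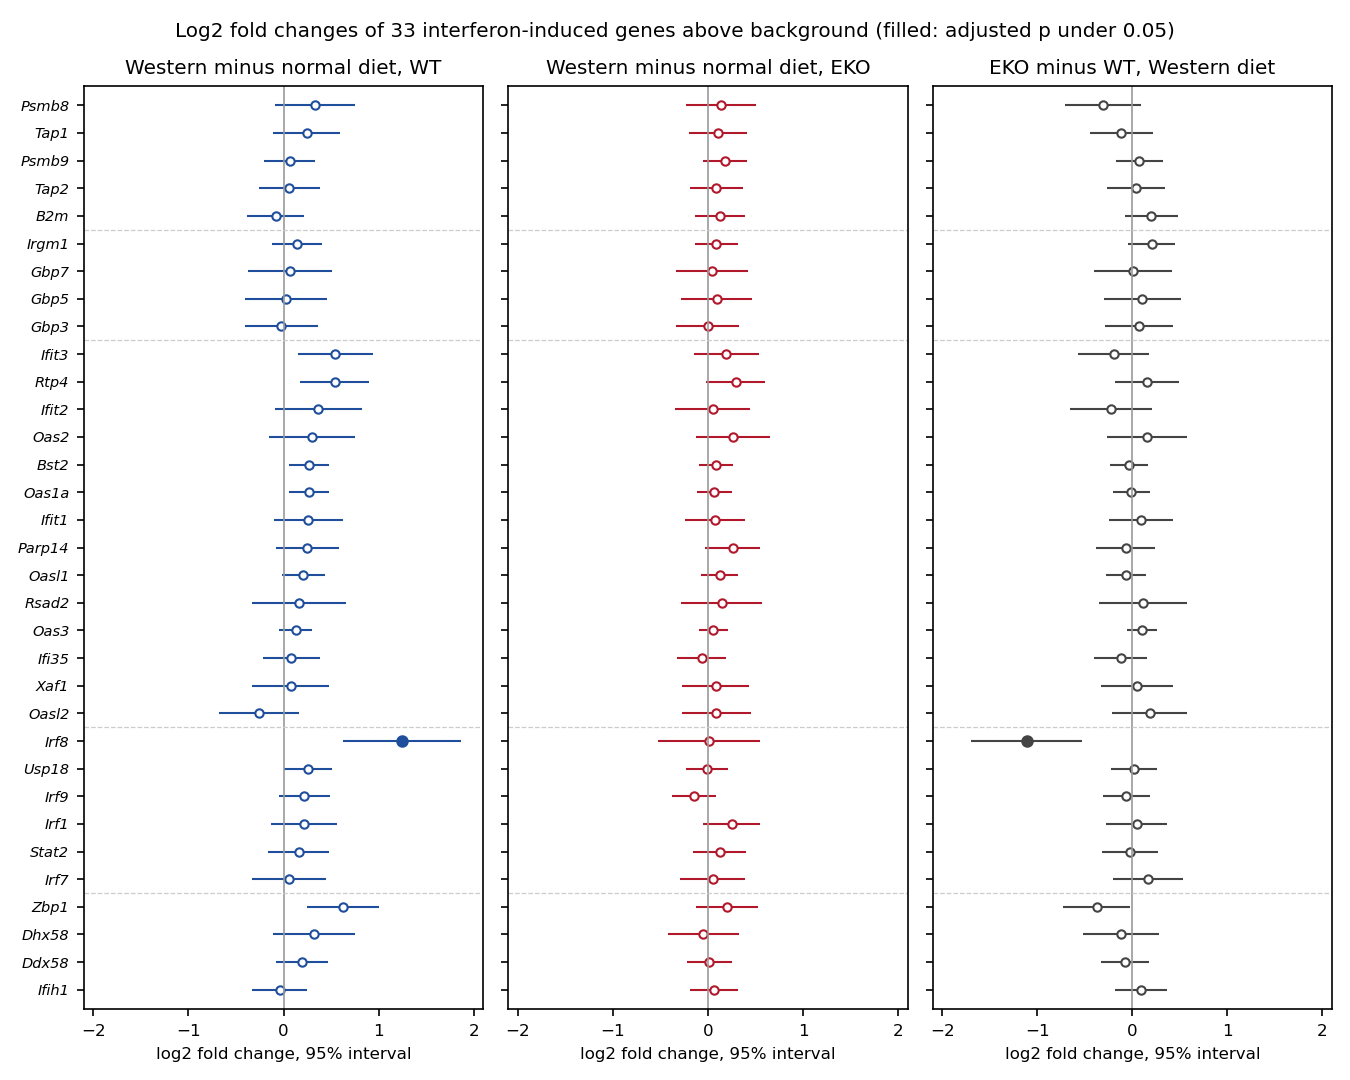
Log2 fold change and unadjusted 95% interval of 33 interferon-induced genes (Mx1 and Mx2, at background, left out) for the diet in WT, the diet in EKO, and EKO against WT on Western diet, in blocks by role (from the top, class I antigen processing, GTPases, antiviral effectors, transcription factors with Usp18, and sensors). Filled points passed at an adjusted p under 0.05: Irf8 at 1.25 in WT and at -1.11 for EKO against WT.

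In EKO fat the Western diet changed none of the 35 genes (limma), and 0 had an unadjusted p under 0.05. Over all genes 0 passed (0%) and 4.43% had an unadjusted p under 0.05 (1.64% higher, 2.79% lower). The EKO diet groups overlapped for all 35, while 0.973% of all genes lay apart as higher and 1.59% as lower. Irf8 was 8.98, 8.69, 9.13 and 9.43 on normal diet and 8.93, 9.26, 9.05 and 9.03 on Western diet. The Western-diet arrays lay inside the range of the normal-diet arrays, with a log2 fold change of 0.01 and a 95% interval of -0.53 to 0.55. Zbp1 was 8.25, 8.48, 8.57 and 8.56 on normal diet and 8.60, 8.70, 8.84 and 8.51 on Western diet, with overlap (0.20 ± 0.15, adjusted p = 0.946, limma). The smallest p values belonged to Rtp4 (0.29 ± 0.15), Parp14, an ADP-ribosyltransferase (0.26 ± 0.13), and Irf1 (0.25 ± 0.14), each at adjusted p = 0.946. Rtp4 was 8.92, 9.14, 9.55 and 9.17 on normal diet and 9.35, 9.54, 9.59 and 9.47 on Western diet. Parp14 was 9.31, 9.39, 9.81 and 9.76 on normal diet and 9.54, 10.02, 9.80 and 9.94 on Western diet, and Irf1 8.95, 9.17, 9.27 and 9.37 against 9.09, 9.72, 9.28 and 9.67. All 3 overlapped between the diets. The median was 0.085, against 0.007 over all genes, and 28 of 35 values were above 0, against 52.1% of all genes. The 95% interval lay within 1 of 0 for all 35 and within 0.5 for 26. The macrophage markers had mean levels of 9.31 to 10.20 and 9.59 to 10.09 in the EKO groups, and 0 of 12 passed.

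On normal diet EKO and WT fat differed in 0 of the 35 genes by limma (0.00502% of all genes passed, which is Apoe alone), with 5 at an unadjusted p under 0.05, all higher in EKO. Over all genes 0.431% were higher at that p, 0.702% lower and 1.13% either. These were Irf9 (0.30 ± 0.12), Rtp4 (0.40 ± 0.16), Usp18 (0.28 ± 0.11), Oas3 (0.17 ± 0.08) and Irgm1 (0.26 ± 0.11), and each had an adjusted p of 1. Irf9 in EKO was 9.25, 9.17, 9.53 and 9.58, against 9.07, 8.98 and 9.21 in WT, and Usp18 8.62, 8.78, 8.76 and 8.996, against 8.33, 8.48 and 8.72. For both, as for Rtp4, only the lowest EKO array lay inside the WT range. Irgm1, a GTPase that restricts intracellular bacteria, was 8.92, 8.96 and 8.85 in WT and 8.96, 9.13, 9.32 and 9.27 in EKO. Its lowest EKO value lay just above the highest WT value. Oas1a also did not overlap (0.19 ± 0.09). These 2 were the genes without overlap as higher, with 0 as lower, against 0.848% and 0.868% of all genes. The median of all 35 was 0.051, against -0.006 over all genes, and 29 were above 0, against 46.8% of all genes. Without EKO replicate 3 or 4 it was 0.014 or 0.006, and without EKO replicate 1 or 2 it was 0.13 or 0.12.

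On Western diet Irf8 was lower in EKO than in WT, and it was the 1 gene of 35 to pass, against 5.69% of all genes in either direction, 4.05% as lower and 1.64% as higher. This comparison uses the same 3 WT Western-diet arrays as the diet comparison in WT. The 4 EKO values, 8.93 to 9.26, lay below the lowest WT value of 9.29, and Irf8 fell by 1.11 ± 0.27 on the log2 scale (adjusted p = 0.0274, limma). Without WT replicate 1 it was -1.56 (adjusted p = 0.000207). Within the lower-background arrays, which leave out WT replicate 1 and EKO replicates 1 and 3, it was -1.49 (adjusted p = 0.00109). The call ended without WT replicate 2 (-0.94, adjusted p = 0.144) or 3 (-0.85, adjusted p = 0.192) and without EKO replicate 1 (-1.07, adjusted p = 0.0715), 3 (-1.11, adjusted p = 0.0572) or 4 (-1.10, adjusted p = 0.0660). It also ended when the 7 Western-diet arrays were fitted alone (adjusted p = 0.0621). In the same comparison 7 of 12 macrophage markers were lower in EKO and 0 higher, and the part of those cells was again not tested. Zbp1 was at -0.38 ± 0.16 (adjusted p = 0.224, limma), and Oas3, whose groups did not overlap, was at 0.10 ± 0.08 with EKO the higher. The groups lay apart for 1 gene as higher and 1 as lower, against 7.93% and 8.71% of all genes, and 0 were higher and 2 lower at an unadjusted p under 0.05, against 7.78% and 11.5%. The median of the 35 was 0.005, against 0.033 over all genes, with 18 values above 0, against 57.6% of all genes.

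Whether the diet effect depended on genotype was tested as an interaction over all 14 arrays. None of the 35 genes passed (limma), against 0.482% of all genes, and 2 had an unadjusted p under 0.05, both below 0. Over all genes 6.57% were below and 4.27% above 0 at that p, and 57.1% of all interaction values were above 0, against 10 of the 35. For Irf8 the diet effect in EKO was lower than in WT by 1.24 ± 0.39 (95% interval -2.06 to -0.42, adjusted p = 0.192, limma). It passed in 3 of 24 alternatives: without WT replicate 1 on Western diet (-1.69, adjusted p = 0.00324), in the lower-background arrays (-1.56, adjusted p = 0.00939) and with array weights (-1.51, adjusted p = 0.00100). For Irf9 the interaction was -0.36 ± 0.16 (adjusted p = 0.433, limma) and for Zbp1 -0.43 ± 0.23 (adjusted p = 0.559). Irf9 was 9.07, 8.98 and 9.21 in WT on normal diet and 9.18, 9.22 and 9.51 on Western diet, and its EKO arrays on Western diet were at 9.28, 9.34, 9.15 and 9.18. The WT diets overlapped.

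Within groups the genes tended to be high or low in the same arrays. In EKO on normal diet, replicate 4 was the highest array for 19 of 35 genes and replicate 3 for 14, while replicate 1 was the lowest for 20 and replicate 2 for 13. Over all genes replicate 4 was the highest for 28.1% and replicate 1 the lowest for 23.8%. In WT on Western diet, replicate 3 was the highest for 22 and replicate 1 the lowest for 24; over all genes these shares were 36.3% and 44.7%. In EKO on Western diet, replicate 2 was the highest for 18 and replicate 1 the lowest for 19, against 25.8% and 35.2% of all genes. The background was 6.30 and 6.39 in EKO replicates 3 and 4 on normal diet and 6.56 and 6.77 in replicates 1 and 2; its part in this order was not tested. The median SD of the 35 genes was 0.18 in WT on normal diet, 0.19 in WT on Western diet, 0.23 in EKO on normal diet and 0.14 in EKO on Western diet, against 0.11, 0.15, 0.15 and 0.15 over all genes. The widest spread of a single gene was that of Irf8 in WT on Western diet (SD 0.78, n = 3).

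**Figure D4:**
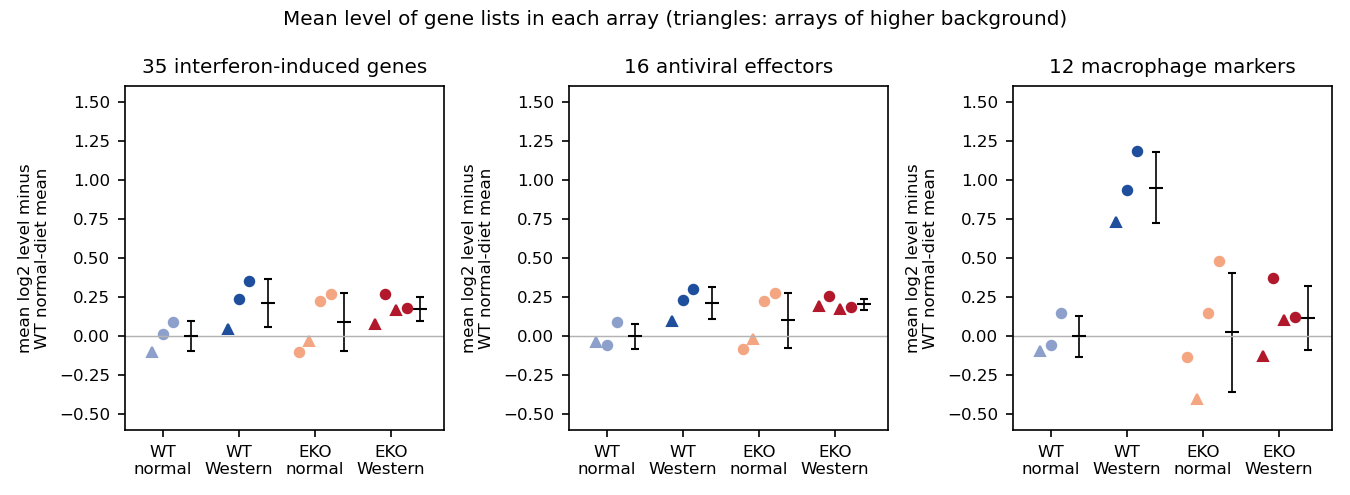
Mean log2 level in each array, relative to the mean of the WT normal-diet arrays, of 35 interferon-induced genes, of their 16 antiviral effectors and of 12 macrophage markers; bars give the mean ± SD (n = 3, 3, 4 and 4) and triangles mark arrays of higher background. The ranges of the 35 genes overlap between all 4 groups, the effectors of the WT normal-diet arrays lie below those of both Western-diet groups, while the macrophage markers of the 3 WT Western-diet arrays lie above all other arrays.

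The mean level of the 35 genes was 8.85 to 9.04 in WT and 8.85 to 9.22 in EKO on normal diet, and 9.0 to 9.30 in WT and 9.03 to 9.22 in EKO on Western diet. The diet ranges overlapped in both genotypes. For the 16 antiviral effectors the mean level was 8.55, 8.53 and 8.68 in WT on normal diet and 8.69, 8.82 and 8.89 on Western diet, which did not overlap, with less than the range of either group between them. In EKO it was 8.51 to 8.86 and 8.76 to 8.84, with overlap.

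Other parts of the pathway were read from lists written with the earlier results known. Of 20 interferon ligand genes 15 were measured, 0 passed in any of the 5 comparisons by limma, and 6 lay at background on average. At an unadjusted p under 0.05 there were 0 in WT, 2 higher in EKO for the diet (1.64% of all genes), 0 for EKO on normal diet, 2 higher in EKO on Western diet (7.78%) and 2 positive interaction values (4.27%). Ifng, the interferon gamma gene, was 7.72 ± 0.16 and 7.73 ± 0.08 in WT (SD, n = 3 each) and 7.65 ± 0.17 and 7.74 ± 0.18 in EKO (SD, n = 4 each) on normal and Western diet. Ifnb1 was at background in all 4 groups. The Ifna genes are near-identical copies, and their values are uncertain for that reason.

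Of 12 genes of receptors, their kinases and the signalling regulators Socs1, Socs3 and Ptpn11, 0 passed for the diet in WT by limma, with 4 at an unadjusted p under 0.05, all higher, against 8.53% of all genes. Ifngr2, the signalling chain of the interferon gamma receptor, was 11.05, 11.11 and 11.03 in WT on normal diet and 11.22, 11.79 and 11.996 on Western diet, without overlap (0.60 ± 0.20, adjusted p = 0.111, limma). Its EKO values on Western diet were 10.55, 11.14, 11.00 and 11.12, all lower than the WT values on that diet, and Ifngr2 and Jak1 were the 2 genes of this list that passed there as lower, against 4.05% of all genes, at -0.72 ± 0.19 (adjusted p = 0.0404) and -0.42 ± 0.11 (adjusted p = 0.0434). Both calls ended without WT replicate 2 or 3 or without any 1 of the 4 EKO arrays (-0.55 to -0.78, adjusted p = 0.0528 to 0.256, for Ifngr2; -0.36 to -0.45, adjusted p = 0.0607 to 0.198, for Jak1). Jak1 also missed in the lower-background arrays (-0.43, adjusted p = 0.101). Ifnar2 was at 0.33 ± 0.09 for the diet in WT (adjusted p = 0.0544).

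A further list held nucleic acid sensors, their signalling genes, and regulators such as Trex1, Samhd1 and Adar. Whether any of them induced interferon here was not tested. Of the 16 measured, 3 rose with the diet in WT, against 3.19% of all genes, and 0 in EKO. Aim2, a sensor of cytosolic DNA that forms an inflammasome, was 7.58, 7.10 and 7.56 in WT on normal diet and 8.13, 8.30 and 8.27 on Western diet. In EKO it was 7.48 to 7.64 on normal and 7.47 to 7.67 on Western diet, so the 3 WT Western-diet arrays were the highest of all 14. Aim2 rose by 0.82 ± 0.12 in WT (adjusted p = 0.00118) and was lower in EKO on Western diet (-0.62 ± 0.11, adjusted p = 0.00477, limma), in all of 16 and 17 alternatives. Irf5, a factor of macrophage activation, rose by 0.71 ± 0.15 (adjusted p = 0.0150), from 9.05 ± 0.12 to 9.75 ± 0.26 (SD, n = 3 each), a call that ended without WT replicate 2 or 3 on Western diet (0.65, adjusted p = 0.0683; 0.62, adjusted p = 0.0909). On Western diet Irf5 was lower in EKO (-0.84 ± 0.14, adjusted p = 0.00379, limma), also in all 18 alternatives. The kinase gene Ikbke rose by 0.46 ± 0.12 in WT (adjusted p = 0.0446) with overlapping groups, and was lower in EKO on Western diet (-0.52 ± 0.12, adjusted p = 0.0182). The Ikbke rise ended without WT replicate 1, 2 or 3 on normal diet or 2 or 3 on Western diet (0.33 to 0.52, adjusted p = 0.0724 to 0.229), and its EKO call without WT replicate 2 or 3 (-0.47, adjusted p = 0.0948; -0.38, adjusted p = 0.130). The interaction passed for Aim2 (-0.77 ± 0.16, adjusted p = 0.0443, limma), against 0.336% of all genes as lower. Without WT replicates 2 or 3 of either diet, EKO replicates 1, 3 or 4 on normal diet or any 1 EKO array on Western diet it missed (-0.61 to -0.85, adjusted p = 0.0610 to 0.145).

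Of 39 other measured interferon-induced genes, 3 rose and 1 fell with the diet in WT, against 3.19% and 2.3% of all genes, and 1 of the 3 lay at background. Lgals3bp, a secreted glycoprotein, rose by 0.65 ± 0.14 and Slfn2, of the Schlafen family, by 0.73 ± 0.19 (adjusted p = 0.0161 and 0.0386, limma). The Lgals3bp call ended without WT replicate 2 or 3 on normal diet or 3 on Western diet (0.63, 0.65 and 0.55, largest adjusted p = 0.0986). The Slfn2 call ended without WT replicate 1 or 3 on normal diet or 2 or 3 on Western diet (0.53 to 0.81, largest adjusted p = 0.202), and in the lower-background arrays (0.72, adjusted p = 0.0877). The third, Ms4a4b, lay at background in all groups, so no fold is given. Cxcl11, a chemokine induced by interferon gamma, moved the other way: it was 7.62, 7.54 and 7.57 in WT on normal diet and 7.33, 7.06 and 7.04 on Western diet. The WT values did not overlap, and Cxcl11 fell by 0.44 ± 0.09 (adjusted p = 0.0139) and was higher in EKO on Western diet (0.44 ± 0.09, adjusted p = 0.00945, limma). The fall ended without WT replicate 3 on normal diet or 2 or 3 on Western diet (-0.44, -0.40 and -0.38, largest adjusted p = 0.0844), and the EKO call without WT replicate 2 or 3 (0.40 and 0.39, adjusted p = 0.0618 and 0.0726). Its neighbours Cxcl9 and Cxcl10 were at 0.13 ± 0.20 and 0.38 ± 0.13 for the diet in WT and did not pass. Ifi27l2a also passed as higher for EKO on Western diet (0.97 ± 0.20, adjusted p = 0.0125, limma), so 2 of the 39 did, against 1.64% of all genes. It was 11.74, 11.77 and 11.56 in WT and 12.59 to 12.76 in EKO on that diet. Without WT replicate 3 its difference was 0.90 (adjusted p = 0.0833). In WT on normal diet Ifi27l2a was 11.97, 13.02 and 12.29. Its WT diet groups did not overlap, with Western diet the lower (-0.74 ± 0.22, adjusted p = 0.064, limma). The median of the 39 was 0.15 for the diet in WT and 0.064 in EKO.

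Of 11 measured class I heavy chain and peptide loading genes, 2 rose with the diet in WT and 0 in EKO, against 3.19% and 0% of all genes. H2-Q4, a class I heavy chain with close paralogs, rose by 1.01 ± 0.25 (adjusted p = 0.0316, limma) and Tapbp (tapasin), which loads peptides, by 0.43 ± 0.10 (adjusted p = 0.0267). Tapbp was 11.54, 11.49 and 11.39 on normal and 11.87, 11.86 and 11.99 on Western diet. The H2-Q4 call ended without WT replicate 1 or 3 on normal diet or 2 or 3 on Western diet (0.80 to 1.06, largest adjusted p = 0.174), and that of Tapbp without WT replicate 2 or 3 on either diet (0.39 to 0.46, largest adjusted p = 0.131). Of 15 markers of T and NK cells, which make interferon gamma, 1 rose in WT (Cd3e, 0.40 ± 0.11, adjusted p = 0.0418, limma), against 3.19% of all genes. Nkg7 was at 0.91 ± 0.26 (adjusted p = 0.0605, limma). Cd3d, Klrb1c, Ncr1, Gzma and Eomes, 5 of the 15, lay at background. Above 0 were 14 of the 15, against 44.2% of all genes. At an unadjusted p under 0.05, 6 markers were higher and 0 lower, against 8.53% and 8.42%. The WT groups did not overlap for 6 markers as higher and 0 as lower, against 8.77% and 11.3%. Ncr1, Gzma and Eomes, at background, were among the 6 without overlap, and Ncr1 among the 6 at that p. The mean level of the 15 markers was 7.08 to 7.15 and 7.21 to 7.43 in WT on normal and Western diet. With the WT arrays fitted alone the diet calls of Ikbke, Cxcl11, Lgals3bp, Slfn2, H2-Q4 and Tapbp also ended (adjusted p = 0.0560 to 0.199), as did those of Ifngr2 and Ikbke with the Western-diet arrays alone (adjusted p = 0.0796 and 0.0721).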

How the data were processed

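The authors' deposited matrix holds log2 values of 34760 probe sets in 14 arrays, and the submitters' processing notes name RMA, with no settings. Because RMA equalises the arrays, it would hide a shift common to most genes. The platform annotation pairs 21640 rows with 1 symbol, and 1 probe set per gene was kept. Each comparison was a contrast among 4 group means fitted to all 14 arrays with limma 3.58.1 in R 4.3.3 (lmFit, eBayes, 10 residual degrees of freedom), two-sided, Benjamini-Hochberg adjusted over 19937 genes. The test was tried on simulated arrays. Of the 35 genes, per-array values are given for those that passed in a comparison, or else for the 3 with the smallest p; other genes shown by array, and which promoter stretches to print, were chosen after their values were seen. The members and lists were chosen with earlier results of these data known. Figures were drawn with matplotlib 3.10.9.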

Additional observations from a re-analysis of the deposited data

How the results depend on the processing

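The number of interferon-induced genes that passed for the diet in WT, 1 in the fit reported, was 2 with median centring, 3 with quantile normalization, 2 without the dimmest 25% or 50% of genes, 2 with the background set as a block, 2 in the lower-background arrays, 0 with the WT arrays alone and 11 (10 higher, 1 lower) with array weights, and 0 to 3 when 1 array was left out. For EKO on Western diet, also 1, it was 0 with those arrays alone, 6 with array weights (all lower, Mx1 and Mx2 at background among them) and 0 to 2 with 1 array left out. For the interaction, 0, it was 1 with array weights, 1 in the lower-background arrays and 0 to 1 with 1 array left out. For the diet in EKO and for EKO on normal diet it was 0 in all 19 and 18 alternatives. Array weights raised the count over all genes for the diet in WT from 1094 to 5224 and for EKO on Western diet from 1134 to 6789; without 1 array it fell to 415 and 316. The sign of Irf8 held in all 17 and 18 alternatives, and no gene of the 35 or of the other pathway lists that passed changed sign; the cell type markers were not run under the alternatives. The alternatives for the other pathway lists were added after the data were seen. With the replicate number as a block, 2 interferon-induced genes passed for the diet in WT (Irf8 and Zbp1), and no other count of these genes changed. The numbers were not taken as pairs. Deviations of same-numbered arrays correlated between diets at 0.009 to 0.46 in WT and -0.59 to 0.45 in EKO. Between diets, 2 of 6 WT and 1 of 8 EKO arrays correlated best with their own number. Between genotypes the same-number values were -0.11 to 0.21 on normal diet and -0.11 to 0.64 on Western diet, highest for replicate 1. The number of arrays limits the precision, and levels at background are not resolved.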
